A study of Homo sapiens with 12 samples.

Results

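The regions described here carried a peak of the histone mark H3K4me2 in U-937 cells treated with all-trans retinoic acid (ATRA) and Corin together, and carried no peak with the vehicle DMSO, with ATRA alone or with Corin alone. U-937 is a human acute myeloid leukaemia cell line of the monocytic lineage. Every treatment lasted 24 hours, and the drugs were given at 0.1 µM ATRA, at 0.1 µM Corin, or at 0.1 µM of each in the combination. For each treatment 2 H3K4me2 libraries and 1 input library were made, and the values used are 1 pooled peak list per treatment, called against that treatment's input. Merging the overlapping or touching peaks of the 4 lists gave 84577 regions, and 74264 of these included an ATRA+Corin peak. Of these, 13794 were held by the ATRA+Corin list alone, which is 16.3% of all regions and 18.6% of the regions with an ATRA+Corin peak. They are called combination-only regions below. Each of them held exactly 1 peak. The rule uses the presence of peaks, so the number of these regions and their absence from the other lists are its definition and not a result. With 1 list per treatment and no values per library, the spread between replicates is unknown and no test across treatments is possible. Shares are given with 95% Wilson intervals, which cover counting error only, and nearby regions are not independent of each other.

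H3K4me2 sits on nucleosomes beside active promoters and at enhancers, including enhancers that are marked before their gene is switched on. LSD1, a demethylase that works in the CoREST complex together with histone deacetylases, removes methyl groups from H3K4, and Corin is a synthetic molecule that blocks both the demethylase and the deacetylases of that complex. ATRA is the ligand of the retinoic acid receptors, which bind DNA with RXR at pairs of AGGTCA-like half-sites and drive differentiation of some myeloid leukaemia cells. PU.1 and the C/EBP factors open enhancers of the monocytic lineage, and GFI1 is a repressor that brings LSD1 to DNA in blood cells.

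The 12 combination-only regions with the highest −log10 q all lay in introns, and 3 of them are shown. Their reference sequence (hg38, plus strand, 300 bases centred on the summit) shows what kind of DNA carried the strongest peaks. The windows are chr20:4162874-4163173 in an intron of SMOX, chr1:26771578-26771877 in an intron of ARID1A and chr14:93246347-93246646 in an intron of BTBD7. Capitals mark matches to C/EBP (TTGCNNAA) in SMOX and to RUNX (TGTGGTT) in BTBD7, read on either strand. A retinoid half-site (AGGTCA) in the BTBD7 window is left in lower case. PU.1 (GAGGAAGT) and AP-1 (TGANTCA) had no match in these 3 windows.
SMOX: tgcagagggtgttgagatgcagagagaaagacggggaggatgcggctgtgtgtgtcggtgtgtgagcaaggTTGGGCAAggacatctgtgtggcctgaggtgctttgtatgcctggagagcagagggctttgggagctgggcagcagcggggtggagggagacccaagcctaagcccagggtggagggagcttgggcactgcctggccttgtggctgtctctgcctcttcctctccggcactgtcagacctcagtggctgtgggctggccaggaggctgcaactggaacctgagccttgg
ARID1A: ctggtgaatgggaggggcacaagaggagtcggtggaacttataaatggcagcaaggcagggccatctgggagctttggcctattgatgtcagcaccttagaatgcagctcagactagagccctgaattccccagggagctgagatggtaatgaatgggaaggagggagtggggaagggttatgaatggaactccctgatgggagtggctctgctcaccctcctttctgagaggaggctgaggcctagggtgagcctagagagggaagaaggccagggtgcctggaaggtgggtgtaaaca
BTBD7: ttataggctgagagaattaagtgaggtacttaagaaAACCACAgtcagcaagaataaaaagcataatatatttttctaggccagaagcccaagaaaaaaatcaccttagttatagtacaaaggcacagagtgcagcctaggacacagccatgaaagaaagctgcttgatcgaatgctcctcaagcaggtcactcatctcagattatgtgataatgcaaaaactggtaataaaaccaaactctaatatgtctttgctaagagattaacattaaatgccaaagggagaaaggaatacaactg

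PU.1 matches were more frequent to the side of the summit than under it, and they are shown in the 4 strongest combination-only regions that had GAGGAAGT between 100 and 200 bp from the summit. Each stretch is 100 bases on the strand that reads the motif, here the minus strand in all 4, with the match in capitals. The stretches are chr6:126157156-126157255 in TRMT11, chr19:13438355-13438454 in CACNA1A, chr7:115971661-115971760 in TFEC and chr18:63271960-63272059 in BCL2. The centres of the matches lay 108, 106, 187 and 149 bp from the summits, and the peaks had −log10 q values of 27.8, 16.5, 16.5 and 14.7.
TRMT11: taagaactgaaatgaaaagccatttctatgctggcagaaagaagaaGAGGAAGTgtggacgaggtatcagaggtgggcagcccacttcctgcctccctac
CACNA1A: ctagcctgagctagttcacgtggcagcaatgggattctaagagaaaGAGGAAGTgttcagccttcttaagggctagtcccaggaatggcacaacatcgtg
TFEC: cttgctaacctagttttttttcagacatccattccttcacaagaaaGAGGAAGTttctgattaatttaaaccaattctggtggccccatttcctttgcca
BCL2: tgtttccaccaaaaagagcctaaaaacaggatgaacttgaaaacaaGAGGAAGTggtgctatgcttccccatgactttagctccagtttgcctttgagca

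DR5, in which a pair of half-sites in the same orientation is separated by 5 bases, is a classical binding site of retinoic acid receptors. It was found in only 18 of the 13794 windows, so the 4 strongest are printed as the rare cases (100 bases each, match in capitals). They lie at chr3:35933052-35933151 (minus strand, nearest coding gene ARPP21), chr6:42155471-42155570 (plus strand, nearest GUCA1ANB), chr19:49950216-49950315 (plus strand, nearest SIGLEC11) and chr15:85897620-85897719 (minus strand, nearest KLHL25). The gene names are the nearest symbols only, and ARPP21 and KLHL25 lie over 100 kb away. On chromosomes 6 and 19 the nearest coding start site belonged to a gene without a symbol, 229 and 8223 bp from the summit. The −log10 q values were 11.8, 8.34, 6.79 and 6.25.
nearest ARPP21: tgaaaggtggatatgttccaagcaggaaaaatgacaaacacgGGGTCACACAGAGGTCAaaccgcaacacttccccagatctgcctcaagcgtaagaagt
nearest GUCA1ANB: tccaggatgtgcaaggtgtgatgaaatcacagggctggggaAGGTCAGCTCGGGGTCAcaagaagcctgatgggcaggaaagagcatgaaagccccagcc
nearest SIGLEC11: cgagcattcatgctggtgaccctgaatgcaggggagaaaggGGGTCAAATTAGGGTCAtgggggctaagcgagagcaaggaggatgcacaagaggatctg
nearest KLHL25: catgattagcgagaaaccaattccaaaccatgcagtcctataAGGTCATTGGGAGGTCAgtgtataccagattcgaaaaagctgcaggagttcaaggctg

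Combination-only regions were narrow and mostly weak. Their median width was 293 bp, and together they covered 5.01 of the 108.5 Mb under ATRA+Corin peaks, or 4.62%. At the summit the median fold enrichment over input, the authors' own value, was 3.58 (5th to 95th percentile 2.38 to 5.84). Fold and −log10 p together give the H3K4me2 fragments sequenced at each summit, which had a median of 20 and ranged from 11 to 221. The median −log10 q was 3.44, and 3199 regions (23.2%, 22.5 to 23.9%) reached a −log10 q of 5. A value of 10 was reached by 548 of them (3.97%) and a value of 20 by 24. These values describe what the rule selected and are given without a test. A −log10 q of 5 was reached by the ATRA+Corin peak in 55.2% of the 6179 regions held only by the Corin and ATRA+Corin lists. It was reached in 48.4% of the 3033 regions that only the ATRA and ATRA+Corin lists held, in 80.0% of the 4144 held by all 3 drug lists without DMSO, and in 96.6% of the 43264 held by all 4 lists. None of the combination-only regions exceeded the median ATRA+Corin peak of a region held by all 4 lists (0 of 13794, upper limit 0.0278%).

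**Figure D1:**
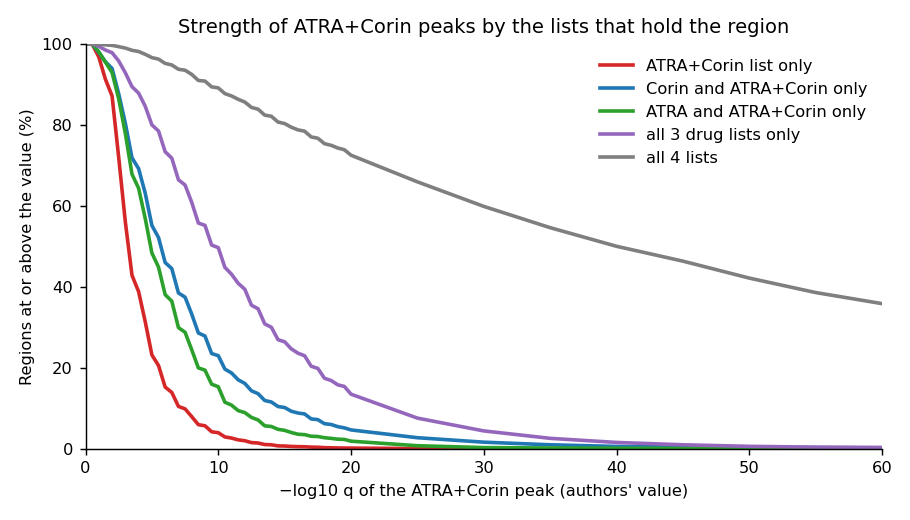
Share of regions (vertical axis, %) whose strongest ATRA+Corin peak reached the −log10 q on the horizontal axis, for the 5 groups of regions. The curve of combination-only regions falls first, to 23.2% at a value of 5 and 3.97% at 10, and the curve of regions held by all 4 lists falls last.

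Because the regions are weak, depth and input were checked beside them. Relative to DMSO, the background of H3K4me2 fragments over the genome was 1.02 (ATRA), 1.10 (Corin) and 1.20 (ATRA+Corin). This background was solved from fold and −log10 p and was used in place of depth, because peak lists hold no library totals. Depth below means this background. When the summits were scaled to the DMSO depth, 13558 of 13794 (98.3%) still had a −log10 p of at least 2.05, the highest of the lowest values found in the 4 lists. That bar is low, and a summit called at the full depth will mostly pass it. A −log10 p of 5 was reached by 7101 summits at the ATRA+Corin depth and by 5318 at the DMSO depth. It was reached by 7363 at the ATRA depth and by 6883 at the Corin depth. Each scaling also took the input background of that list and its scaling factor to input, so these counts do not follow depth alone. At the DMSO depth the median summit held 16.7 fragments, and 7.81% of the DMSO peaks held no more than that. Whether fewer fragments, below the calling threshold, were present at these sites after the other treatments is not measured by peak lists. The input background solved for the summit was at the genome-wide value in 46.4% of the regions (45.6 to 47.3%), compared with 35.3% of the other ATRA+Corin regions. It was over 3 times that value in 105 (0.761%). The genome-wide value, 2.01, was also the lowest found, and the input measured at the summit itself is not known.

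At the border of the rule, the weakest members had a fold of 2.39 and a −log10 q of 0.559. The ATRA+Corin regions that failed it with the weakest peaks of another list had −log10 q values of 0.427 and 0.452 there. Of the members, 61 lay within 10 bp of a peak of another list, and 47 ATRA+Corin peaks were covered over at most 10 bp by other lists.

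Few combination-only regions lay at promoters, as in the other groups of regions without a DMSO peak. A start site of a protein-coding or lncRNA gene lay within 1 kb of the summit in 521 regions (3.78%, 3.47 to 4.11%). The same held for 4.22% of the regions shared with Corin only, 4.12% of those shared with ATRA only, 5.26% of those held by all 3 drug lists and 29.0% of those held by all 4 lists. Introns held 63.5%, exons 4.07%, and 28.6% lay outside genes. The shares also differed among peaks of like strength. At a −log10 q of 5 to 10, 3.96% of the combination-only regions (3.28 to 4.77%) and 7.57% of those held by all 4 lists (6.71 to 8.53%) were at start sites. CpG-rich windows, with at least 50% GC and an observed to expected CpG ratio above 0.6, made up 0.768% of the combination-only regions, 0.712% of those shared with Corin only, 1.32% of those shared with ATRA only and 14.8% of the regions in all 4 lists. The mean GC content of 300 bp was 45.9% (SD 7.60) in combination-only regions, 45.6% (SD 7.39) with Corin only, 46.9% (SD 7.5) with ATRA only, 52.6% (SD 9.66) in all 4 lists and 42.9% (SD 8.59) in the 11376 windows placed 10 kb downstream of combination-only summits that met no region.

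Around protein-coding start sites the combination-only regions were placed unevenly. Between 2 and 10 kb from the nearest start site, 2295 lay downstream, toward the gene body, and 1221 lay upstream, a ratio of 1.88, so that 65.3% were downstream (63.7 to 66.8%). Regions shared with Corin only leaned to the same side, with 921 against 584 (61.2%, 58.7 to 63.6%). For regions of all 3 drug lists without DMSO the counts were 356 against 327 (52.1%, 48.4 to 55.8%), an interval that includes equal sides. For regions shared with ATRA only the counts were 246 against 232 (51.5%, 47.0 to 55.9%), and for those of all 4 lists 2890 against 2829 (50.5%, 49.2 to 51.8%), and both intervals include equal sides. The intervals of the combination-only regions and of both ATRA-shared and fully shared regions do not overlap. Both added checks kept the downstream side. The share was 60.3% (56.7 to 63.8%) among combination-only regions with a −log10 q of at least 5, and 59.7% (57.3 to 62.0%) among those over 1 kb from any peak of the other lists.

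**Figure D2:**
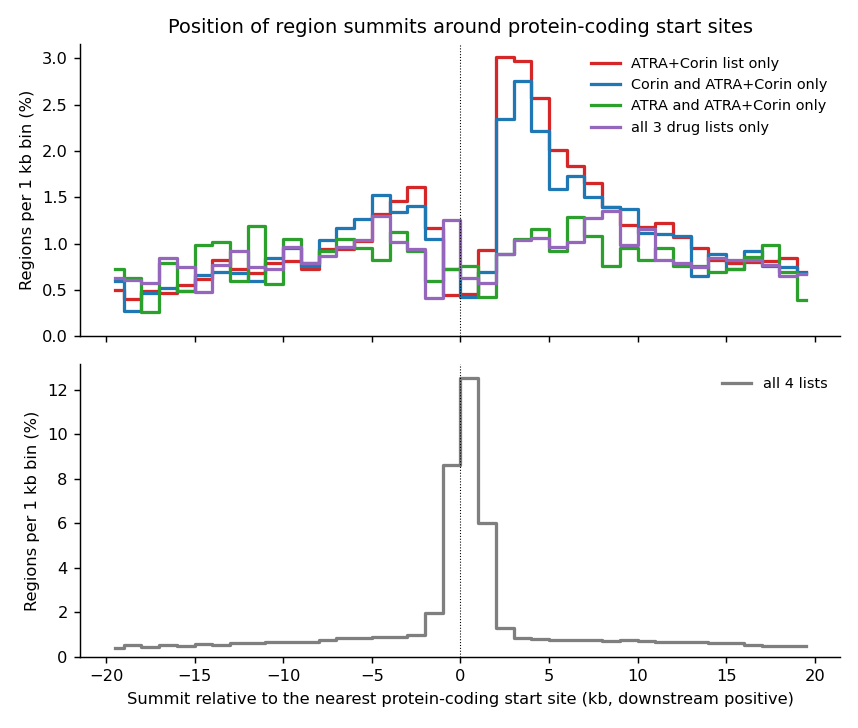
Percent of each group's regions (vertical axis) in 1 kb bins of distance between the summit and the nearest protein-coding start site (horizontal axis, downstream positive), with regions held by all 4 lists in the lower panel on their own scale. Combination-only regions and regions shared with Corin alone are few in the bins next to the start site and highest from 2 to 5 kb downstream, with at least 2.57% of the combination-only regions in each of these bins against at most 1.15% of the regions shared with ATRA only.

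The median distance from a combination-only region to the nearest peak of any other list was 1695.5 bp (1603 to 1782 bp). It was 2260 bp to a Corin peak, 2818 bp to an ATRA peak and 3898 bp to a DMSO peak, in the order of decreasing list length. A peak of another list lay within 1 kb of 41.4% of the regions (40.6 to 42.3%) and within 10 kb of 78.0%. A region held by all 4 lists lay at a median of 3948.5 bp from a combination-only region (3786 to 4140 bp), compared with 5342 bp from a region shared with Corin only and 7067 bp from a region shared with ATRA only. The nearest neighbouring region was held by all 4 lists for 59.9% of the combination-only regions, against 61.1% of all other regions, and was shared by Corin and the combination only for 11.2%, against 8.73%.

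Some combination-only regions lay near each other, and whether this exceeds what other groups of as many regions show was not tested. With gaps of at most 10 kb, 8383 of them stood alone and 5411 (39.2%) shared a cluster with at least 1 other. There were 101 clusters of 5 or more regions, with 657 regions in all, and 9 clusters of 10 or more. The cluster with most regions lay in RCSD1, which encodes an actin capping protein regulator, with 16 regions over 33.5 kb (chr1:167638444-167671925). It was followed by PREX1, a Rac activator of myeloid cells, with 14 over 38.3 kb, by APLP2, a relative of the amyloid precursor protein, with 13 over 27.1 kb, and by MAPKAPK2, a kinase downstream of p38, with 13 over 37.5 kb. By summed strength the leading cluster was in SMOX, the gene of spermine oxidase, where 4 regions covered 11450 bp of a 12.3 kb stretch (chr20:4158136-4170406).

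The SMOX stretch was filled by wide peaks, whereas the 16 regions of the RCSD1 cluster covered 8585 bp of 33.5 kb. The 4 SMOX peaks were 1413, 4946, 3961 and 1130 bp wide, with fold enrichments of 8.92, 10.5, 8.53 and 5.25 and −log10 q values of 24.8, 36.1, 22.7 and 9.64. The stretch ran from 9.31 to 21.6 kb downstream of the SMOX start site. Each of the other lists had a peak over that start site and a peak beginning 23.0 to 23.3 kb downstream, and none met the stretch. In PIK3CG, the gene of the gamma catalytic subunit of PI3-kinase of white blood cells, the strongest combination-only peak was 1744 bp wide, with 84 fragments at the summit, a −log10 q of 32.8 and a fold of 9.86. Within 50 kb of the PIK3CG start site there were 3 DMSO regions, 4 with ATRA, 3 with Corin and 15 with the combination. These are merged regions, and both the DMSO and the Corin list had more than 3 separate peaks there. Each combination-only region is 1 peak, so the contrast with DMSO and Corin was smaller in peaks than in regions. In RCSD1 the 21 combination-only regions within 50 kb of the start site were weaker, with −log10 q values from 0.945 to 15.6, and 16 of them lay inside the gene.

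**Figure D3:**
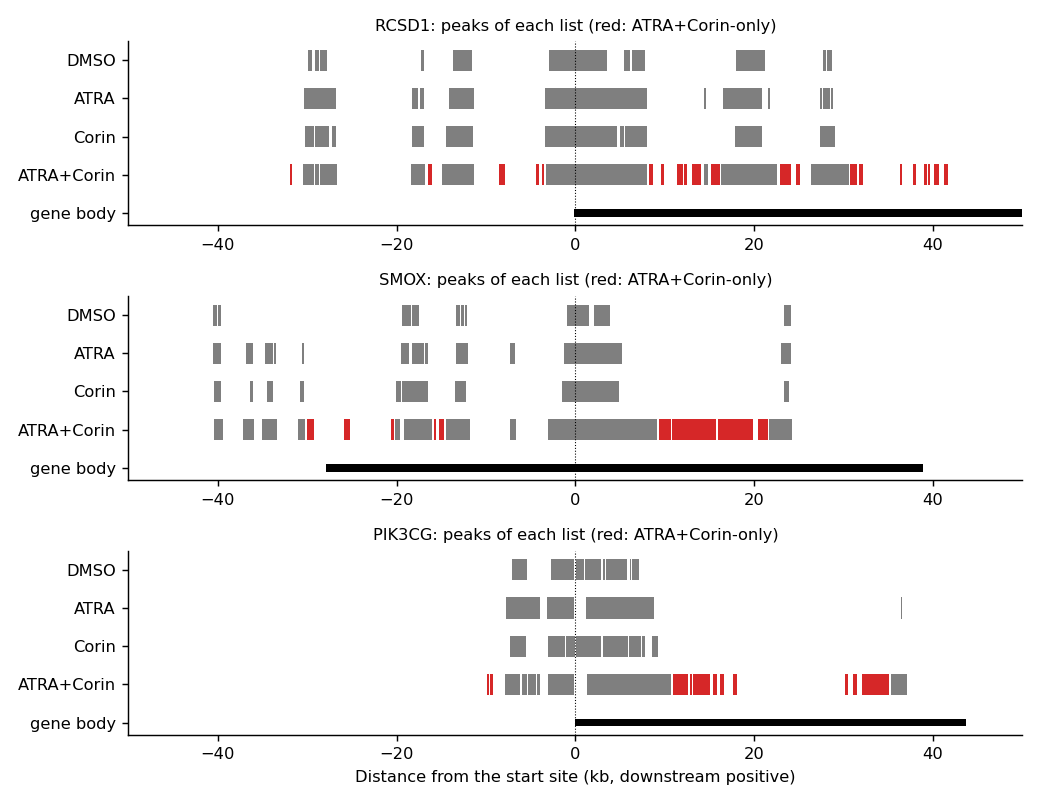
Peaks of the 4 lists (grey bars, red where the region is combination-only) and the gene body (black) within 50 kb of the start sites of RCSD1, SMOX and PIK3CG, against distance from the canonical start site in kb. The red bars lie mostly downstream, between and beside grey peaks, and SMOX has a near continuous red stretch from 9.31 to 21.6 kb.

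The other strongest regions were spread over genes of different kinds. The highest −log10 q, 39.2, belonged to an intron of ITGA6, the gene of integrin alpha 6 (chr2:172455767-172456613), where the fold enrichment was only 4.32 with 221 fragments and the input background there was 28.6 on a scale where the genome-wide value was 2.01. The remaining 11 of the 12 strongest had input backgrounds of 2.01 to 6.0 and fold enrichments of 7.04 to 11.9. A region in CCN4, which encodes a secreted matrix protein, had 77 fragments, a fold of 10.8 and a −log10 q of 32.5, and lay 1049 bp from the nearest Corin peak. The region in ARID1A, a subunit of the BAF remodelling complex, had a fold of 9.63 and lay 11262 to 11568 bp from the nearest peaks of the other lists. The region in BTBD7 had the highest fold, 11.9, with 67 fragments, 6489 bp from an ATRA peak, 36210 bp from a Corin peak and 37029 bp from a DMSO peak. The region in TRMT11 had a fold of 11.3 and was the most isolated of the 12, with the nearest Corin peak at 13463 bp and the nearest DMSO peak at 101540 bp. LILRB2, an inhibitory receptor of monocytes, held a region of 1616 bp with a fold of 7.04, 710 bp from a DMSO peak. It belongs to a family of similar neighbouring genes, so the placement of its reads is less certain. SLMAP held a region with a fold of 10.5, 11978 to 12043 bp from the nearest peaks of the other lists. The last of the 12 lay in lncRNA genes, near POLR3K on chromosome 16 and in MDS2, whose nearest coding gene is ID3, with folds of 10.8 and 10.5.

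PU.1 matches were more frequent in combination-only regions than in neighbouring DNA. The motif GAGGAAGT, read on both strands, was in 662 windows of 300 bp (4.80%, 4.45 to 5.17%). It was in 1.49% of the windows 10 kb downstream, in 3.69% of all regions, in 4.48% of the regions shared with Corin only, in 6.40% of those shared with ATRA only and in 2.98% of those held by all 4 lists. Within a −log10 q of 2 to 5 the shares were 4.82% (4.39 to 5.28%) in combination-only regions and 4.66% (3.64 to 5.94%) in regions of all 4 lists, and these intervals overlap. Among combination-only regions the share was 2.88% (2.20 to 3.77%) below a −log10 q of 2, 5.24% from 5 to 10 and 8.78% (6.65 to 11.5%) from 10 to 20. At 20 and above it was 1 of 24 (4.17%, 0.739 to 20.2%), too few to place.

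PU.1 matches were most frequent beside the summit and less frequent under it. With both sides counted together, a match lay 100 to 200 bp from the summit in 4.61% of the combination-only regions (4.27 to 4.97%), but within 100 bp in only 2.56% (2.31 to 2.84%) and at 400 to 500 bp in 1.23% (1.06 to 1.43%). In the windows 10 kb downstream the share stayed between 0.958% and 1.13% at every distance. Regions of all 4 lists also had their highest share there, with 1.41% within 100 bp and 4.09% at 100 to 200 bp, and so did regions shared with ATRA only, with 3.10% and 6.76%. In the 548 combination-only regions with a −log10 q of at least 10, 8.76% (6.67 to 11.4%) had a match at 100 to 200 bp and 0.912% (0.390 to 2.12%) at 400 to 500 bp. AP-1 and C/EBP were also highest at 100 to 200 bp, in 8.53% and 14.2% of the combination-only regions, against 6.14% and 9.66% of the windows downstream.

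**Figure D4:**
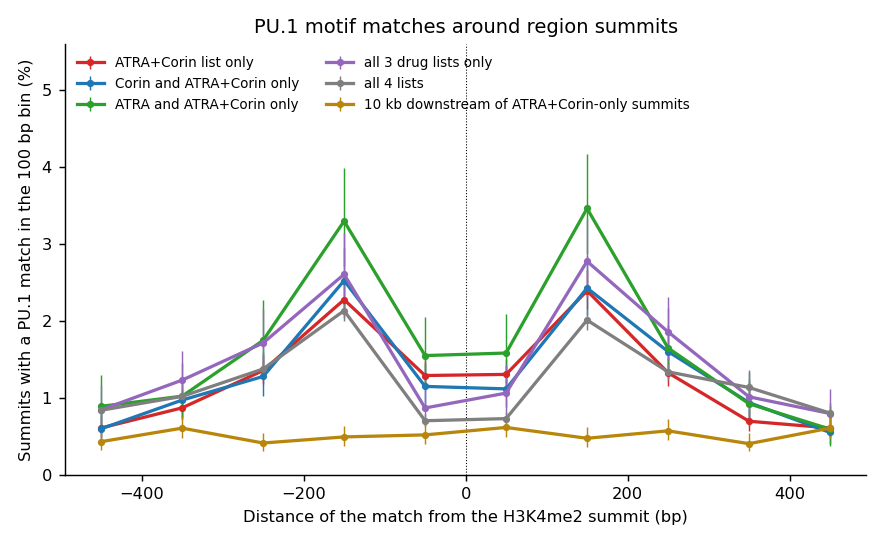
Percent of summits with a PU.1 match (vertical axis) in each 100 bp bin of distance from the H3K4me2 summit (horizontal axis), with 95% Wilson intervals as vertical lines, for the 5 groups of regions and for positions 10 kb downstream of combination-only summits. Each group of regions has a maximum on both sides, 100 to 200 bp away, with a dip at the summit, and the downstream positions are flat near 0.5%.

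The motifs also differed with distance from other peaks. In the 3040 combination-only regions over 10 kb from any peak of the other lists, PU.1 was matched in 7.04% (6.18 to 8.0%), C/EBP in 22.8% (21.3 to 24.3%), AP-1 in 12.4% (11.2 to 13.6%), IRF (GAAANNGAA) in 15.8% (14.5 to 17.1%) and RUNX in 8.65% (7.70 to 9.70%). In the 5716 regions at most 1 kb from such a peak, the same motifs were matched in 2.94% (2.53 to 3.41%), 14.8% (13.9 to 15.8%), 8.82% (8.11 to 9.58%), 9.53% (8.80 to 10.3%) and 5.48% (4.92 to 6.10%). Regions 1 to 10 kb away lay between these values for all 5 motifs. GFI1 (AATCNNNGC) went the opposite way, from 28.0% (26.9 to 29.2%) at most 1 kb away to 19.6% (18.2 to 21.1%) over 10 kb away, but this rested on 1 word. AATCCCAGC, which Alu repeats also hold, was in 16.7% (15.7 to 17.7%) of the near and 7.53% (6.65 to 8.53%) of the far regions, and without it the GFI1 shares were 15.2% (14.3 to 16.2%) near, 16.0% between and 14.2% far, where the intervals of all 3 overlap. The median −log10 q was 3.10 in the near and 3.44 in the far regions, and mean GC was 46.4% and 44.1%. The part of strength and base composition in these differences was not tested, nor that of repeats for the other motifs.

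**Figure D5:**
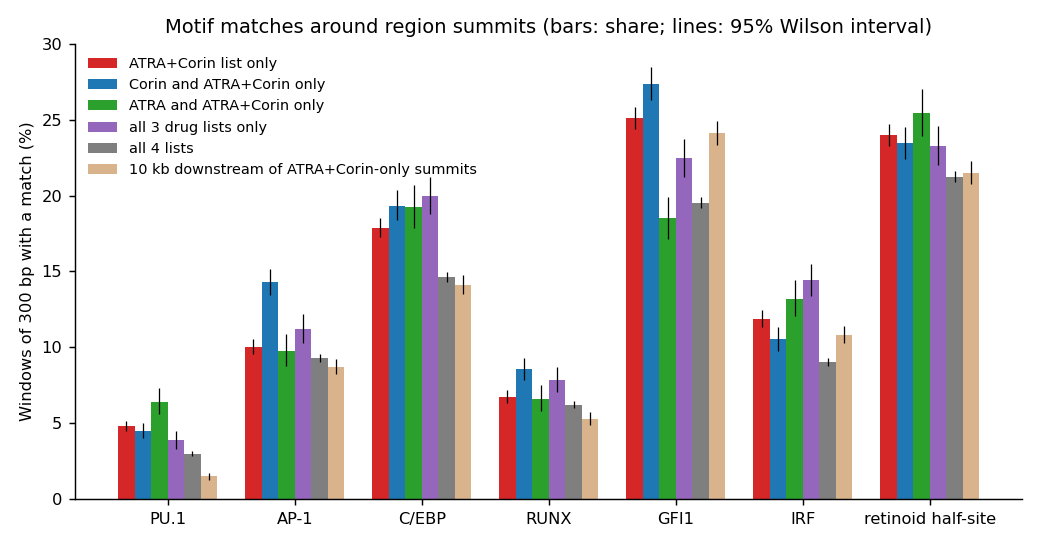
Percent of 300 bp windows with a match to each of 7 motifs (vertical axis) in the 5 groups of regions and in windows 10 kb downstream of combination-only summits, with 95% Wilson intervals. As a ratio to the downstream windows PU.1 is highest of these motifs in combination-only regions, in percentage points C/EBP is, and GFI1 and the retinoid half-site lie close to them, and AP-1 is higher in regions shared with Corin only.

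AP-1 was matched in 10.0% of the combination-only regions (9.56 to 10.6%), 14.3% of those shared with Corin only (13.4 to 15.2%), 9.76% of those shared with ATRA only and 8.71% of the windows downstream. In windows of 100 bp the order against the downstream windows turned for AP-1, with 2.86% (2.60 to 3.16%) against 2.95%, and for IRF, with 3.19% (2.91 to 3.50%) against 3.64%. GFI1 was matched in 25.1% of the combination-only regions (24.4 to 25.9%), 27.4% of those shared with Corin only, 18.5% of those shared with ATRA only and 24.1% of the windows downstream. AATCCCAGC, a word also found in Alu repeats, gave the GFI1 match in 1822 of the 3467 combination-only regions with that motif. Without this word the GFI1 share was 15.3% (14.7 to 15.9%) in combination-only regions, 18.1% with Corin only, 11.1% with ATRA only and 13.8% (13.1 to 14.4%) downstream. The retinoid half-site AGGTCA was in 24.0% of the combination-only regions and 21.5% of the windows downstream. DR5 was in 0.130% (0.0826 to 0.206%) of the combination-only regions, 0.396% of those shared with ATRA only, 0.0809% of those shared with Corin only and 0.0615% of the windows downstream. DR2, the same pair with a spacing of 2 bases, was in 2.39% of the combination-only regions, where AGGTCAGGAGTTCA, a word also found in Alu repeats, gave 256 of 329. Without it DR2 was in 0.536% (0.428 to 0.673%), against 0.466% downstream. Motif matches are a description of letters and not of binding.

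Genes differed widely in how many combination-only regions lay within 50 kb of their start site. At least 1 was found for 9165 of 19959 protein-coding genes (45.9%), and 5 or more for 498 (2.5%). Genes with 5 or more also had more H3K4me2 without drugs. Their median number of DMSO regions was 7, compared with 2 for genes with none, and a DMSO peak lay within 1 kb of the start site in 82.1% of them (78.5 to 85.2%), compared with 51.0% of genes with none and 61.3% of all genes. The 20 leading genes were chosen by this count, so their counts are a description. They held 260 combination-only regions, of which 203 (78.1%) lay downstream of the start site and 190 (73.1%) inside the gene. A DMSO peak lay at the start site of 17 of the 20. Of all combination-only regions, 63.5% lay in introns and 4.07% in exons of any gene. At 2 to 10 kb from the nearest protein-coding start site, 16.6% lay downstream and 8.85% upstream. At 10 to 50 kb the shares were 22.4% and 15.1%. Neither leaning is therefore particular to the 20 genes.

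RCSD1 led with 21 combination-only regions, and 6 regions with DMSO, 7 with ATRA, 6 with Corin and 28 with the combination. AGFG1, an Arf GTPase-activating protein relative, had 15, and 5, 10, 10 and 25 regions in the same order. TGM2, the transglutaminase gene that ATRA induces in myeloid cells, had 14, with 5, 11, 8 and 22 regions in the same order. PREX1 had 15, MAPKAPK2 14 and APLP2 14. ADIPOR2 (an adiponectin receptor), ARHGEF2, MGLL (monoacylglycerol lipase), TLR9 (a sensor of unmethylated DNA), CPD (carboxypeptidase D) and PSAP (the precursor of the lysosomal saposins) had 13 each. ARHGEF2 had 6 regions with each of the other treatments and 19 with the combination, whereas the regions near TLR9 lay outside the gene itself. CCN4 and B4GALT5 had 12, and PIK3CG, PTPRJ, APBB1IP, ZNF385A and TXNDC2 had 11. SLMAP had 10, and 4, 4, 3 and 14 regions. Since the genes were chosen by their combination-only regions, a high ATRA+Corin count follows from the choice.

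Most genes of the retinoid pathway had a combination-only region. Of 20 retinoid response genes, 14 had at least 1 (70.0%, against 45.9% of all genes), with a median of 1, and 3 had 5 or more (15%, against 2.5% of all genes). Besides TGM2 these were DHRS3, a retinal reductase, with 9 (regions in the same order 6, 9, 7 and 18), and RARG, retinoic acid receptor gamma, with 5 (8, 9, 10 and 15). RARA had 2 and RARB had 1. CYP26A1, which breaks down retinoic acid, CD38 and RXRA had 0. The genes of this list had a median of 4.5 DMSO regions, against 4 for all genes. Combination-only regions made up 27.1% of the ATRA+Corin regions near the list and 16.0% near all genes. TGM2, with 14 of its 22 ATRA+Corin regions, and DHRS3, with 9 of 18, carried a large part of the list's 46 combination-only regions. Within 10 kb of the start site, 5 of the 20 genes (25%) had a combination-only region, against 18.0% of all genes.

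Of 30 genes of monocyte and granulocyte differentiation, 25 had at least 1 combination-only region (83.3%, against 45.9% of all genes), with a median of 2 against 0, and 3 had 5 (10.0%, against 2.5% with 5 or more). ITGB2, the beta 2 integrin, had 5, and 8, 10, 9 and 15 regions. FCGR1A, the high-affinity IgG receptor, had 5 (8, 12, 9 and 15) but has near-identical copies on the same chromosome, and CEBPB had 5 (10, 11, 10 and 17). CD86, a costimulatory ligand, had 4, SPI1, the gene of PU.1, had 3, and ITGAM had 2. At NCF1, a subunit of the phagocyte oxidase, both regions had a −log10 q of 22.1, but this gene has near-identical pseudogene copies, so the placement of its reads is uncertain. The granule protein genes MPO and ELANE had 0. The genes of this list had a median of 6 DMSO regions.

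For the remaining lists the same shares of all genes, 45.9% with at least 1 region and a median of 0, are the background. All 13 chemokine and chemokine receptor genes had at least 1 combination-only region, with a median of 2 and a median of 7 DMSO regions. The strongest region named here was near CCR1, with a −log10 q of 22.0. Of 12 genes of cell cycle arrest and apoptosis, 11 had at least 1 (91.7%), with a median of 2.5 and a median of 6.5 DMSO regions. CDKN1B, the inhibitor p27, had 5 (6, 5, 6 and 12), BCL2L11, the pro-apoptotic BIM, had 4 (2, 2, 3 and 7), and BAX had 0. The single region at BCL2 had a −log10 q of 14.7. Of 12 CoREST and p300 genes, 9 had at least 1 (75.0%), with a median of 2. NCOR1, a co-repressor of nuclear receptors, had 5 (3, 6, 4 and 10), RCOR1, the gene of CoREST itself, had 4, EP300 had 2, and KDM1A, the gene of LSD1, had 0. Of 12 leukaemia stem and progenitor genes, 10 had at least 1 (83.3%), with a median of 1. MYB had 4, FLT3 had 2 with a highest −log10 q of 12.3, and GATA2 and MECOM had 0. Near these 3 lists in the same order, combination-only regions were 23.5%, 25.8% and 19.6% of the ATRA+Corin regions, against 19.1% and 19.4% near the differentiation and chemokine lists. Genes with more DMSO regions had more combination-only regions in general, and the part of this in the counts of the lists was not tested.

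As a check of the labelled cell type, of 10 myeloid marker genes, 9 had a DMSO peak within 1 kb of the start site (not MPO), compared with 1 of 5 T cell, 3 of 5 B cell and 1 of 5 erythroid markers and 61.3% of all genes. By chromosome, combination-only regions made up from 13.9% (11.6 to 16.5%) of the ATRA+Corin regions on chromosome 21 to 20.8% (19.3 to 22.3%) on chromosome 4.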

How the data were processed

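Chromatin immunoprecipitation for H3K4me2 and paired input libraries were sequenced in U-937 cells. The submitters' processing notes name Trimmomatic, Bowtie2, Picard, MACS2 and hg38. The 4 deposited lists are called optimal overlap sets, with 1 list per treatment over its 2 H3K4me2 libraries. Peak numbers in each list run past its number of rows, for a reason not known here, so absence from a list means absence from the rows analysed. The caller's settings are not given in the sources used here. The deposited fold is a ratio to input at the summit. Per peak, the authors also deposited a −log10 p and a −log10 q, and the deposited score is 10 times the −log10 p, up to 1000. The deposited positions and summit offsets are in bp.

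Lists were merged with Python 3.11.15. Gene positions came from GENCODE release 44 (basic transcripts), and gene windows of 50 kb used canonical start sites. Fragments and background were solved from fold and −log10 p within 0.001, which succeeded for 97.6% to 99.99% of the peaks of each list. Merging and solving were tested on simulated data. Groups came from the sample titles, and no test was run. The members, lists and comparisons were chosen with earlier results of these data known. The named regions are the 12 with the highest −log10 q. The named genes are the 20 with most members, where a gene whose start lies within 100 kb of a higher ranked gene was skipped, and the genes of 6 lists. Motif profiles by distance from the summit, motif shares by distance from other peaks, and the shares without the commonest GFI1 and DR2 words were added after the data were seen. Repeats were not annotated. Peak lists hold no library totals. A few members of the gene lists and 1 of the windows are counted but not reported here by name or sequence.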

Additional observations from a re-analysis of the deposited data

How the results depend on the processing

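The number of combination-only regions depends on how strictly peaks are counted. It was 13794 as reported, 6708 when each list was cut at a −log10 q of 5, 3199 with that value asked of the ATRA+Corin side only, 5445 with the same number of strongest peaks in each list, and 6655 with peaks within 1 kb merged. It stayed within 1.5 times when single ATRA+Corin peaks under 50% covered were counted (17486) and at the lowest depth (13558, where the bar is the lowest −log10 p of the lists). The share at start sites was 12.3% with a window of 2.5 kb, and 3.88% and 3.49% with strong regions and with peaks merged. The median distance to other peaks was 2517 bp for strong regions and 2672 bp to strong peaks. The PU.1 share was 0.754% in windows of 100 bp (0.440% in windows 10 kb downstream) and 5.81% in strong regions. Genes with at least 1 combination-only region numbered 3596 within 10 kb, 12918 within 100 kb and 3101 with strong regions. No paired analysis was possible because the lists pool the replicates. Weak peaks at the calling threshold limit what absence from a list can show, and the spread between replicates is unknown.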
